A study of Mus musculus with 6 samples.

Results

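The genes described here are 6 anoctamins (Ano1, Ano4, Ano5, Ano6, Ano8 and Ano10) and 3 genes of muscle membrane repair (Dysf, Cav3 and Trim72), 9 of the 46095 genes in the table. They were found in the table by gene symbol. The list itself was chosen from earlier results of the same contrast, so their differences between the groups are given as a description and no p-value is printed for them. Where a gene of the list is said to be called or not, this gives only its side of the threshold (an adjusted p under 0.05) in a fit over all genes, and is no independent evidence of a difference. Expression was measured by RNA sequencing of hearts from 3 STAT3cKO mouse samples, with a deletion, specific to cardiomyocytes, of STAT3, which carries signals of IL-6 type cytokines to the nucleus, and from 3 wild-type samples. The study asked which pathways that affect heart function differ without STAT3. The labels give no age, sex, strain or treatment, do not name the Cre driver of the deletion, and do not say whether each sample came from a separate animal. If samples share an animal, the spread behind the p-values and the SDs may be technical alone. Below, each sample is called a heart for short, and n counts samples.

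Anoctamins are membrane proteins of the TMEM16 family. Some are chloride channels opened by calcium and others are scramblases, which let phospholipids cross from one leaflet of a membrane to the other when calcium rises. A contracting muscle cell tears its surface membrane (the sarcolemma) and reseals it within seconds: calcium enters at the tear, Trim72 carries vesicles to it, dysferlin helps them fuse, and caveolin-3 shapes the membrane and holds dysferlin and Trim72 there. In humans, loss of ANO5 or of dysferlin causes limb-girdle muscular dystrophy.

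Total counts per heart ran from 15416877 to 18264052. Levels are given as CPM, counts scaled to a common sequencing depth by TMM, and each log2 fold change is STAT3cKO over wild type, with the standard error (SE) of an edgeR quasi-likelihood fit over 14484 genes. Stat3, the deleted gene, had 775, 982 and 1088 counts in STAT3cKO replicates 3, 6 and 91 and 1937, 1439 and 1778 counts in wild type replicates 1, 3 and 4, a log2 fold change of -0.68 ± 0.10 (SE). Longer transcripts tended to be lower in STAT3cKO hearts: over 13895 tested genes, length and log2 fold change had a Spearman's rho of -0.43, with a median log2 fold change of -0.31 in the longest 10% and 0.43 in the shortest 10%. A second value is therefore given for each of the 9 genes and for some of the other genes named below. It comes from a fit in which a trend of each heart on transcript length and GC content was removed (the length-corrected fit). Where no such value is printed for a gene, its difference is given without this correction. The part that length or RNA quality plays in these differences was not tested beyond that fit.

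All 9 genes passed the filter on low counts. In the fit over all genes, 4 of the 9 were counted as lower (Ano1, Ano5, Ano6 and Trim72), against 12.6% of all genes tested, and 1 was counted as higher (Ano10), against 13.2%. The groups did not overlap in CPM for 7 of the 9, against 43.0% of all genes tested. The median log2 fold change of the 9 was -0.49, beside -0.002 for all genes. Since the list was made with this contrast known, nothing is read from these counts.

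Promoter sequences are shown for the 5 genes called in the fit over all genes, to let their start regions be compared. They are RefSeq sequences of GRCm38.p6 from 250 bases before to 50 bases after a start site, written from 5′ to 3′ on the gene's strand, with E-boxes (CANNTG, which reads the same on both strands and is bound by basic helix-loop-helix factors, among them the MyoD family) in capitals.
Ano5, chr7:51510779-51511078, plus strand: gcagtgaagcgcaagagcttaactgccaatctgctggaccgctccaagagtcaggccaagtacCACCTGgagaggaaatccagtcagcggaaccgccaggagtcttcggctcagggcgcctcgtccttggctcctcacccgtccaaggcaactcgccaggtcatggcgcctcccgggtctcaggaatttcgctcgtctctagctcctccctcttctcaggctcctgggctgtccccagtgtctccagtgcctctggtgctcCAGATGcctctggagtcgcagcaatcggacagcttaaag
Ano1, chr7:144738524-144738823, minus strand: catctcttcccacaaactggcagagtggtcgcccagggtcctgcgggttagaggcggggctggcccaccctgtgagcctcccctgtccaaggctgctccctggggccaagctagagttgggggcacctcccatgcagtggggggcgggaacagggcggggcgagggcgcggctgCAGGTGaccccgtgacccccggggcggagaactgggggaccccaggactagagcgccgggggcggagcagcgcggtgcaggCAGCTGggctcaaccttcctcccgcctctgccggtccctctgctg
Ano6, chr15:95790593-95790892, plus strand: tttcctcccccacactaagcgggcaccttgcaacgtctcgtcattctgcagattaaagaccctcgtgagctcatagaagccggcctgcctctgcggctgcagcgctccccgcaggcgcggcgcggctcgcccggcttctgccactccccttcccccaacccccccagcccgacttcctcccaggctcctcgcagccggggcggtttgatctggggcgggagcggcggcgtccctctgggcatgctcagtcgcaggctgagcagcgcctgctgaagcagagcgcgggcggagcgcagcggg
Trim72, chr7:128004128-128004427, plus strand: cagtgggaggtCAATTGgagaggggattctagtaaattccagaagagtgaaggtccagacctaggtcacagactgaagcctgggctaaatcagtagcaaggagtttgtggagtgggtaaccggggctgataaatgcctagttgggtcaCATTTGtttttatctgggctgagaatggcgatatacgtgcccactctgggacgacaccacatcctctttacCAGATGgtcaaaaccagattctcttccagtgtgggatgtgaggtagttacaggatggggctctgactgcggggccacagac
Ano10, chr9:122294374-122294673, minus strand: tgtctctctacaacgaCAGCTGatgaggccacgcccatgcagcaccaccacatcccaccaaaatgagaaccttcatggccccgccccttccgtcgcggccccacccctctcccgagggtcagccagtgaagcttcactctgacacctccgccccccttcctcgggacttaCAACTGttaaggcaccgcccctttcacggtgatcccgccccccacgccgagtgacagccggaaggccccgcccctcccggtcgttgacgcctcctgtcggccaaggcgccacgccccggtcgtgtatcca
The windows of Ano5, Ano1 and Ano10 each held 2 E-boxes, that of Ano6 held 0 and that of Trim72 held 3. At least 1 E-box stood in 72.3% of the 32851 promoters of this length, and 3 or more in 17.6%. The STAT motif TTCNNNGAA, which also reads the same on both strands, was in none of these 5 windows, nor in the windows of Ano4, Dysf and Cav3, and was in 8.30% of all promoters. For Ano8 no promoter sequence was available, so it was not searched. The windows of Ano5, Ano1, Trim72 and Ano4, and 1 of the Dysf windows, lie wholly inside the gene spans given below. They start past the gene's 5′ end, so they belong to an inner start site and do not cover the outermost one. These are matches of letters in the windows alone, and the search covered no enhancer or other start site.

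**Figure D1:**
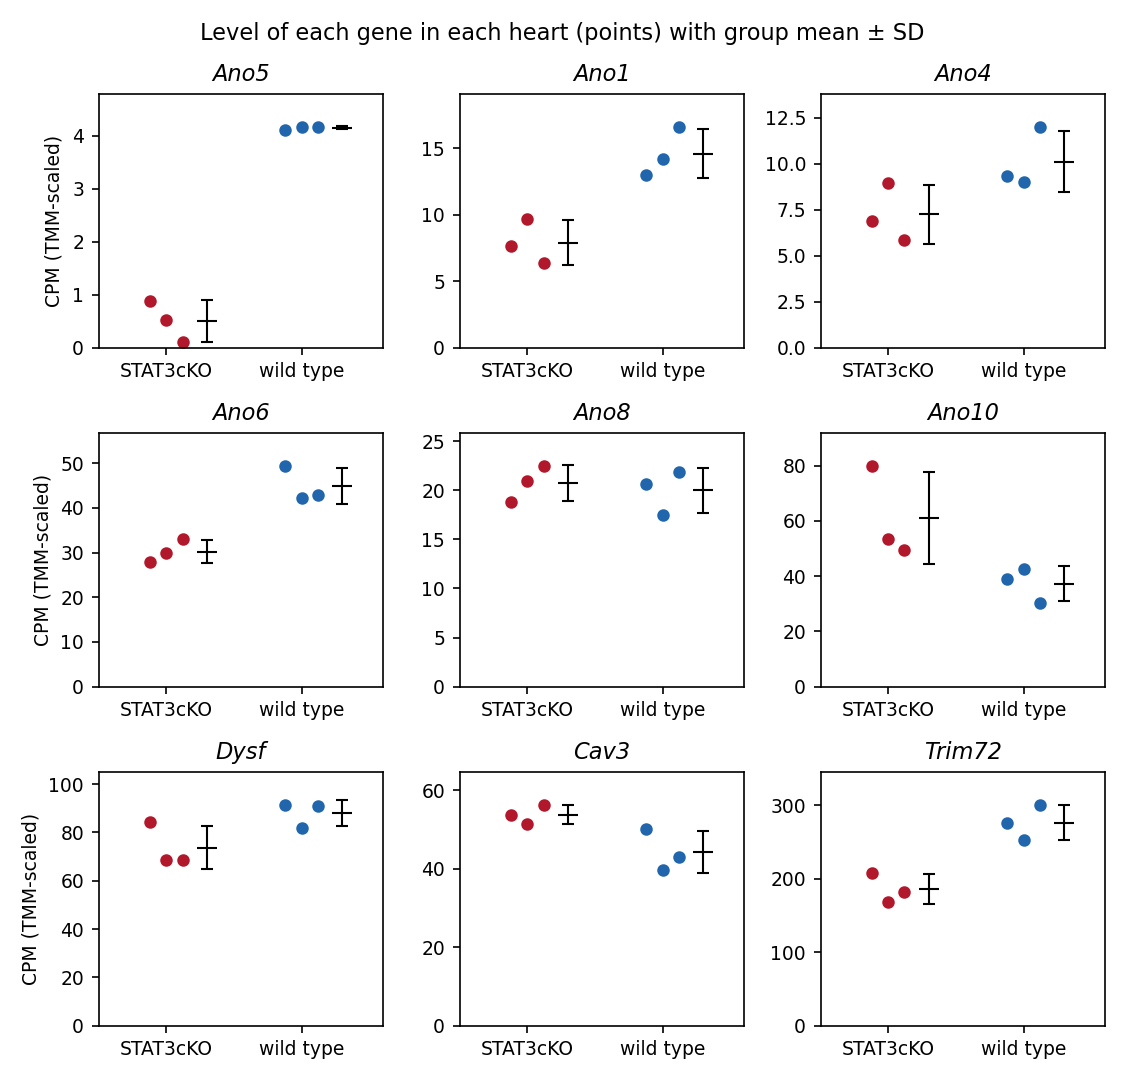
Level of each of the 9 genes in each heart, in TMM-scaled CPM on a linear axis from 0. Points are hearts (STAT3cKO replicates 3, 6 and 91, then wild type replicates 1, 3 and 4, left to right), and the bar beside them is the mean ± SD of 3 hearts. Ano5 sits at 0.110 to 0.887 CPM in STAT3cKO and 4.12 to 4.18 CPM in wild type, and the points of the groups overlap only for Ano8 and Dysf.

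Ano5 (GRCm38.p6 chromosome 7, 51510007 to 51598707, plus strand) encodes an anoctamin of intracellular membranes in muscle that takes part in membrane repair and in the fusion of muscle precursor cells. It had 13, 8 and 2 counts in STAT3cKO replicates 3, 6 and 91 and 80, 70 and 76 counts in wild type replicates 1, 3 and 4. Scaled to depth, this was 0.887, 0.519 and 0.110 CPM in STAT3cKO and 4.12, 4.18 and 4.17 CPM in wild type. The 3 wild-type hearts were nearly equal, while the STAT3cKO hearts differed among themselves by several fold, with replicate 91 lowest, at a depth where single counts matter. The log2 fold change was -3.08 ± 0.43 (SE), an 8.45-fold lower level in STAT3cKO, and only 10 of the 14484 genes tested had a lower log2 fold change. In the length-corrected fit the value was -2.78, and leaving out each heart in turn gave -3.76 to -2.55.

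No stretch of 50 bases of its longest transcript (7785 nt) occurs in a transcript of another gene in GENCODE M21. A pair of RefSeq long noncoding RNA models, Gm33190 and Gm33136, overlaps its span, and Gm33190 had 0 counts in each STAT3cKO heart and 3, 0 and 1 counts in wild type replicates 1, 3 and 4. The nearest tested genes in RefSeq order were Prmt3, an arginine methyltransferase, and Gm7336. Prmt3 had 15.4 ± 1.64 CPM in STAT3cKO and 11.8 ± 0.780 CPM in wild type (SD, n = 3 each; log2 fold change 0.39 ± 0.13, edgeR adjusted p = 0.0408), a call lost in 8 of the 16 alternative fits. Gm7336 had 25.6 ± 7.55 CPM in STAT3cKO and 30.1 ± 7.90 CPM in wild type (edgeR adjusted p = 0.565).

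Ano1 (chromosome 7, 144588549 to 144752026, minus strand), a calcium-activated chloride channel known from smooth muscle, was the second anoctamin that was lower in the fit. Its level was 7.64, 9.67 and 6.35 CPM in STAT3cKO replicates 3, 6 and 91 and 13.0, 14.2 and 16.6 CPM in wild type replicates 1, 3 and 4. Every STAT3cKO heart was below every wild-type heart. The log2 fold change was -0.89 ± 0.17 (SE), and -0.74 in the length-corrected fit.

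Smooth muscle markers moved the same way. Of 12 smooth muscle and pericyte markers, 8 fell and 0 rose, beside 12.6% and 13.2% of all genes tested (edgeR adjusted p under 0.05, median log2 fold change of the markers -0.71). Their summed level was 975 to 1268 CPM in STAT3cKO and 1716 to 1820 CPM in wild type, and none was at 0. Acta2, smooth muscle actin, had 29.2 ± 2.67 CPM in STAT3cKO and 124 ± 21.1 CPM in wild type (SD, n = 3 each; log2 fold change -2.09 ± 0.13, edgeR adjusted p = 2.36e-06). In RNA from heart tissue, fewer cells of a type and less RNA per cell cannot be told apart, and the part of these cells in the Ano1 difference was not tested.

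Ano6 (chromosome 15, 95790843 to 95975472, plus strand) encodes a calcium-activated scramblase and ion channel found in many cell types. It had 27.8, 29.9 and 33.0 CPM in STAT3cKO replicates 3, 6 and 91 and 49.4, 42.1 and 43.0 CPM in wild type replicates 1, 3 and 4. The groups did not overlap, and the log2 fold change was -0.57 ± 0.11 (SE), or -0.39 in the length-corrected fit. Most markers on the endothelial and macrophage lists were also lower in STAT3cKO hearts. Of 10 endothelial markers 7 fell and 0 rose, beside 12.6% and 13.2% of all genes tested. Their summed level was 914 to 1013 CPM in STAT3cKO and 1349 to 1563 CPM in wild type. Among them Cdh5, the cadherin of endothelial junctions, had 128 ± 10.5 CPM in STAT3cKO and 274 ± 30.3 CPM in wild type (log2 fold change -1.09 ± 0.11, edgeR adjusted p = 6.03e-05). Of 9 macrophage markers 6 fell and 0 rose, beside the same shares of all genes tested. Their summed level was 336 to 484 CPM in STAT3cKO and 451 to 572 CPM in wild type. Neither list had a marker at 0. The macrophage markers that fell have transcripts of 3238 to 5374 nt. Those that did not pass are Cd68 (1230 nt, log2 fold change -0.13), Lyz2 (1316 nt, -0.045) and C1qa (1040 nt, -0.20). The endothelial markers that fell have 3249 to 6895 nt, and those that did not pass are Egfl7 and Esam (1865 nt each) and Emcn (3521 nt). No length-corrected value is given for these markers. The part of these cells in the Ano6 difference was not tested.

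Ano4 (chromosome 10, 88948932 to 89345205, minus strand), an anoctamin described as a scramblase and cation channel, was not called. It had 6.89, 8.96 and 5.86 CPM in STAT3cKO replicates 3, 6 and 91 and 9.32, 9.01 and 12.0 CPM in wild type replicates 1, 3 and 4. The highest STAT3cKO heart and the lowest wild-type heart lay close together without overlap. The log2 fold change was -0.49 ± 0.19 (SE), or -0.41 in the length-corrected fit. It was called with library size as the only scaling (-0.60), with no low-count filter (-0.51) and without STAT3cKO replicate 6 (-0.67).

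Ano8 (chromosome 8, 71476016 to 71486092, minus strand), which tethers the endoplasmic reticulum to the plasma membrane, overlapped between the groups. Its level was 18.8, 20.97 and 22.5 CPM in STAT3cKO replicates 3, 6 and 91 and 20.6, 17.5 and 21.9 CPM in wild type replicates 1, 3 and 4. The log2 fold change was 0.06 ± 0.12 (SE) and took values from -0.05 to 0.20 over the alternatives, with 0.20 in the length-corrected fit. Ano8 shares 80 exonic bases on the opposite strand with Dda1, whose log2 fold change was 0.12 ± 0.11 (edgeR adjusted p = 0.443).

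Ano10 (chromosome 9, 122175874 to 122294444, minus strand), an anoctamin of the endoplasmic reticulum whose loss in humans causes a cerebellar ataxia, was the only one of the 9 counted as higher. It had 80.0, 53.3 and 49.6 CPM in STAT3cKO replicates 3, 6 and 91 and 38.9, 42.6 and 30.3 CPM in wild type replicates 1, 3 and 4. The groups did not overlap, but STAT3cKO replicate 3 stood well above the other two. The log2 fold change was 0.71 ± 0.20 (SE), 0.47 without STAT3cKO replicate 3 and 0.72 in the length-corrected fit. The call was lost in the length-corrected fit, with library size as the only scaling, without STAT3cKO replicate 6 and without wild type replicate 1 or 4.

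The 4 remaining anoctamins were near the limit of detection and were not tested. Ano2, a chloride channel of sensory cells, had 1, 3 and 1 counts in STAT3cKO replicates 3, 6 and 91 and 0 in each wild-type heart. Ano3 had 2, 2 and 5 counts in STAT3cKO and 3, 5 and 7 in wild type. Ano7 and Ano9 had at most 1 count in any heart.

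Because the anoctamins moved in both directions, their summed level was much the same in both groups, 128 ± 12.9 CPM in STAT3cKO and 131 ± 3.75 CPM in wild type (SD, n = 3 each). Per length of the longest transcript, Ano10 made up 61.5 ± 7.29% of the summed anoctamin signal in STAT3cKO and 41.9 ± 5.60% in wild type. Ano6 took 17.0 ± 3.66% in STAT3cKO and 27.2 ± 1.98% in wild type, and Ano1 4.71 ± 1.18% in STAT3cKO and 9.57 ± 1.66% in wild type. Ano5 took 0.166 ± 0.113% in STAT3cKO and 1.6 ± 0.0798% in wild type. The count ratio of Ano10 to Ano6, which needs no scaling between hearts, was 2.88, 1.78 and 1.5 in STAT3cKO replicates 3, 6 and 91 and 0.786, 1.01 and 0.706 in wild type replicates 1, 3 and 4. Ano10 therefore had more counts than Ano6 in all 3 STAT3cKO hearts and in 1 of the 3 wild-type hearts.

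**Figure D2:**
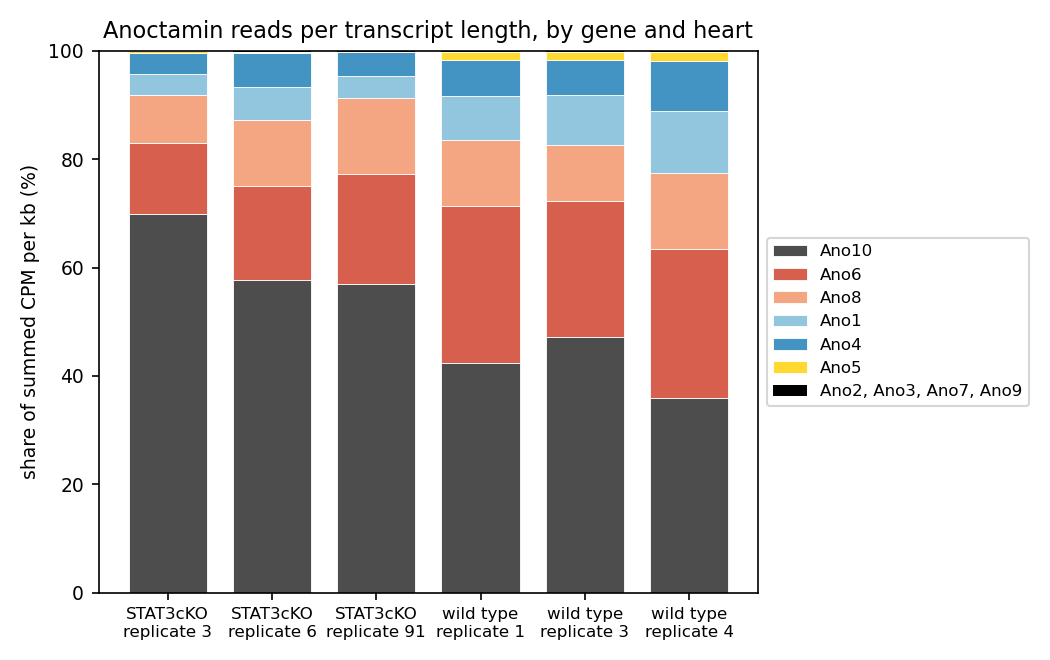
Share of each anoctamin in the summed anoctamin level of each heart, with CPM divided by the length of the longest transcript in kb (stacked bars, in percent). Ano10 has the largest share in every heart, averaging 61.5% in STAT3cKO and 41.9% in wild type, and the yellow Ano5 segment averages 0.166% in STAT3cKO and 1.6% in wild type.

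Of the repair genes, Trim72 (chromosome 7, 128003462 to 128011393, plus strand) was lower. It encodes MG53, a muscle ubiquitin ligase that brings vesicles to a membrane tear. Its level was 208, 169 and 182 CPM in STAT3cKO replicates 3, 6 and 91 and 277, 252 and 301 CPM in wild type replicates 1, 3 and 4. The groups did not overlap. The log2 fold change was -0.57 ± 0.11 (SE), and -0.68 in the length-corrected fit, which moved most of the other 8 genes toward higher values. An antisense transcript, Gm15533, covers 617 of its 2233 exonic bases in GENCODE M21, and without knowledge of the strand setting its reads cannot be told apart from those of Trim72.

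Cav3 (chromosome 6, 112459505 to 112472872, plus strand), the caveolin of muscle, had 53.6, 51.4 and 56.3 CPM in STAT3cKO replicates 3, 6 and 91 and 50.1, 39.7 and 42.9 CPM in wild type replicates 1, 3 and 4. Every STAT3cKO heart lay above every wild-type heart, by a small margin over wild type replicate 1. The log2 fold change was 0.28 ± 0.10 (SE) and was not called, except without wild type replicate 1 (0.38). It was 0.00 in the length-corrected fit, so the direction is not given by these data.

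Dysf (chromosome 6, 84008361 to 84211060, plus strand) encodes dysferlin, a calcium sensor that drives vesicle fusion at the tear. It had 84.2, 68.5 and 68.6 CPM in STAT3cKO replicates 3, 6 and 91 and 91.5, 82.0 and 90.8 CPM in wild type replicates 1, 3 and 4. STAT3cKO replicate 3 lay above wild type replicate 3, so the groups overlapped. The log2 fold change was -0.26 ± 0.10 (SE) and was not called. It was called with library size as the only scaling (-0.37), with no low-count filter (-0.28) and without STAT3cKO replicate 3 (-0.36), and it turned to 0.02 in the length-corrected fit. The transcript is long, at 6803 nt.

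The proportions of the repair genes within a heart also differed. There were 3.89, 3.28 and 3.24 Trim72 counts per Cav3 count in STAT3cKO replicates 3, 6 and 91 and 5.51, 6.36 and 7.02 in wild type replicates 1, 3 and 4. For Trim72 against Dysf the ratio was 2.47, 2.46 and 2.66 in STAT3cKO and 3.02, 3.08 and 3.31 in wild type. Neither ratio overlapped between the groups, and neither depends on the scaling between hearts. Cardiomyocyte markers went both ways. Of 12 tested, 4 rose and 1 fell, beside 13.2% and 12.6% of all genes tested. Their summed level was 67650 to 78520 CPM in STAT3cKO and 58120 to 65330 CPM in wild type, with none at 0. Myl2, the ventricular light chain, rose by 0.80 ± 0.10 on the log2 scale (edgeR adjusted p = 0.000352), and Tnnc1, cardiac troponin C, by 0.82 (adjusted p = 0.000425). At 889 and 721 nt, both are among the shortest 10% of transcripts, whose median log2 fold change was 0.43. Of the others that rose, Tnni3 has 912 nt and Tnnt2 has 3330 nt. No length-corrected value is given for these 4 markers. The one that fell was Ryr2, the calcium release channel, with 920 ± 183 CPM in STAT3cKO and 1447 ± 138 CPM in wild type (log2 fold change -0.65 ± 0.14, adjusted p = 0.00603), and it stood at -0.15 in the length-corrected fit (adjusted p = 0.398). It was chosen after its values were seen. The part of cardiomyocyte share in the differences of Trim72, Cav3 and Dysf was not tested.

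**Figure D3:**
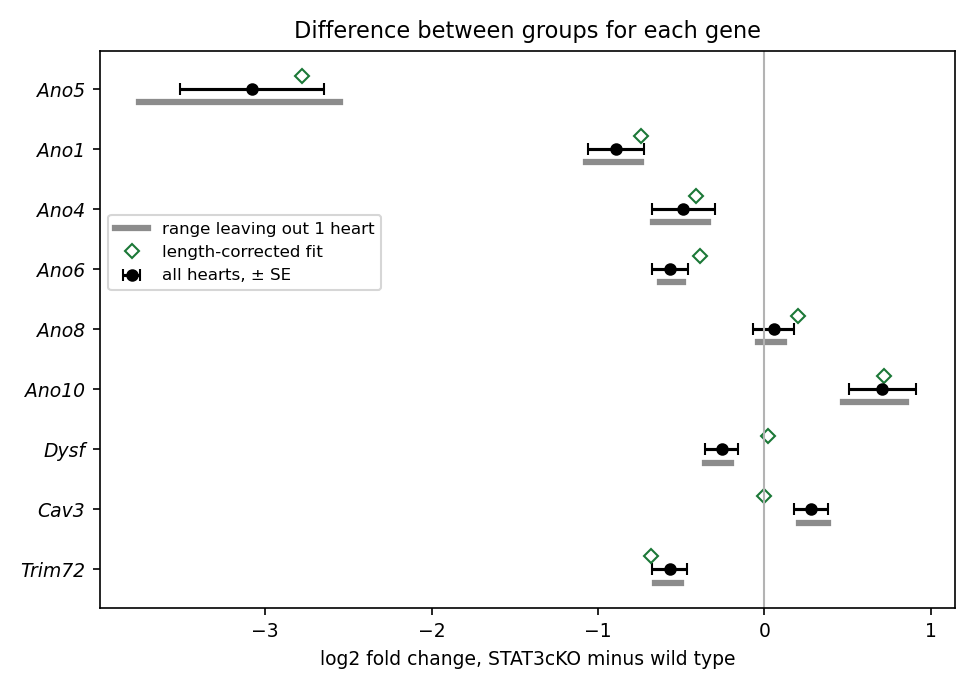
Log2 fold change of each of the 9 genes, STAT3cKO minus wild type. Black points are the fit on all hearts with its SE, grey bars the range when each heart is left out in turn, and green diamonds the length-corrected fit. Ano5 lies at -3.08 and no other gene of the 9 is below -0.89, while Dysf (0.02) and Cav3 (0.00) lie at 0 in it.

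Per kb of the longest transcript, the order of mean levels in wild-type hearts was Trim72 (130 CPM per kb), Cav3 (38.2), Ano10 (14.0), Dysf (12.9), Ano6 (9.10), Ano8 (4.06), Ano1 (3.18), Ano4 (2.46) and Ano5 (0.534). In that group the ranges of Ano10 and Dysf overlapped, as did those of Ano8 and Ano1 and those of Ano1 and Ano4. In STAT3cKO hearts the order was Trim72 (87.3 CPM per kb), Cav3 (46.5), Ano10 (23.0), Dysf (10.8), Ano6 (6.13), Ano8 (4.22), Ano4 (1.76), Ano1 (1.72) and Ano5 (0.0649). There the ranges of Ano10 and Dysf no longer overlapped, and only Ano4 and Ano1 did.

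The relatives of dysferlin and the other genes of the muscle membrane are outside the 9 genes, and their adjusted p-values in the edgeR fit over all genes are given. Their lists were also chosen with earlier results of these data known, so these p-values and counts are no independent evidence. Over all genes tested, 12.6% were lower and 13.2% higher. Of the 5 other ferlins, 2 were tested. Myof, myoferlin, which works in membrane fusion and growth factor receptor turnover, fell to 10.2 ± 1.57 CPM in STAT3cKO, against 17.7 ± 4.07 CPM in wild type (SD, n = 3 each; log2 fold change -0.78 ± 0.17, edgeR adjusted p = 0.00712), and did not pass in the length-corrected fit (-0.48, adjusted p = 0.0768). Fer1l6 had 1.03 ± 0.0703 CPM in STAT3cKO and 1.04 ± 0.444 CPM in wild type (edgeR adjusted p = 0.992). Otof and Fer1l5 had at most 3 counts in any heart and Fer1l4 had 0 in all 6.

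The dystrophin complex, which links the cytoskeleton through the sarcolemma to the matrix, and the costamere were lower in many of their parts. Of 28 members tested, 12 fell, 3 rose and 13 did not pass, with a median log2 fold change of -0.24 beside -0.002 for all genes. The list holds long transcripts, such as Dmd (14910 nt) and Utrn (12382 nt). Among the longest 10% of tested genes with a known length, 39.1% were lower and 3.24% higher. Lama2, the laminin chain that the complex binds, fell to 84.0 ± 8.26 CPM in STAT3cKO, against 168 ± 13.6 CPM in wild type (log2 fold change -1.004 ± 0.10, edgeR adjusted p = 7.53e-05). Utrn, the dystrophin relative utrophin, fell by 1.04 on the log2 scale (SE 0.11, adjusted p = 9.91e-05). Dag1, dystroglycan, fell to 230 ± 11.4 CPM in STAT3cKO, against 378 ± 3.88 CPM in wild type (log2 fold change -0.71 ± 0.09, adjusted p = 0.000292). Dmd, dystrophin, fell to 91.99 ± 3.49 CPM in STAT3cKO, against 156 ± 26.8 CPM in wild type (-0.76 ± 0.12, adjusted p = 0.000928).

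These 4 transcripts are long, and each of the 4 still passed in the length-corrected fit, at -0.63 for Lama2, -0.60 for Utrn, -0.48 for Dag1 and -0.29 for Dmd. Some sarcoglycans, membrane subunits of the same complex, were chosen here after their values were seen. Sgcd fell (log2 fold change -0.63 ± 0.12, edgeR adjusted p = 0.0024), while Sgca stood at 0.12 (adjusted p = 0.468) and Sgcb at 0.14 (adjusted p = 0.218). In the length-corrected fit, 1120 of the 14484 genes tested were lower and 1566 higher. Of the dystrophin list, 8 fell and 3 rose in that fit. The number that rose was 0 with library size alone, without STAT3cKO replicate 3 or without wild type replicate 4, and 1 without STAT3cKO replicate 91 or wild type replicate 1 or 3.

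Genes of caveolae and membrane shaping, the setting of Cav3, went both ways. Of 13 tested, 4 fell, 2 rose and 7 did not pass (median log2 fold change -0.15). Ehd2, an ATPase at the caveolar neck, fell to 102 ± 2.01 CPM in STAT3cKO, against 175 ± 15.2 CPM in wild type (log2 fold change -0.78 ± 0.09, edgeR adjusted p = 0.000207). Cav1, the caveolin of endothelium and other cells outside muscle fibres, fell by 0.45 on the log2 scale (adjusted p = 0.00746), and Ptrf, the coat protein cavin-1, by 0.46 (adjusted p = 0.00957). Murc, the muscle cavin cavin-4, rose to 128 ± 4.09 CPM in STAT3cKO, against 100.4 ± 5.50 CPM in wild type (0.35 ± 0.09, adjusted p = 0.0106). The Murc call was lost with library size alone (adjusted p = 0.0728), in the length-corrected fit (0.057) and without wild type replicate 3 (0.0505). The number that rose was 0 in each of those fits, and 1 without STAT3cKO replicate 3 or 91.

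The wider repair machinery (annexins, calpains, the ESCRT complex and lysosome fusion) showed no common direction. Of 33 tested, 8 rose, 7 fell and 18 did not pass, with a median log2 fold change of 0.04. The calpains Capn1 (log2 fold change -0.63 ± 0.13, edgeR adjusted p = 0.00364) and Capn2 (-0.43 ± 0.08, adjusted p = 0.00313), calcium-activated proteases, fell. Capns1, the small subunit that both share, rose to 249 ± 4.74 CPM in STAT3cKO, against 207 ± 12.3 CPM in wild type (0.27 ± 0.09, adjusted p = 0.0425). It was chosen after its values were seen, and its call was lost in the length-corrected fit (0.08, adjusted p = 0.538), with library size alone (0.15, 0.276), with no low-count filter (0.0843), and without STAT3cKO replicate 3 (0.102) or 91 (0.0753) or wild type replicate 3 (0.153) or 4 (0.129). Anxa11, an annexin, fell to 21.4 ± 1.32 CPM in STAT3cKO, against 31.0 ± 0.918 CPM in wild type (-0.54 ± 0.10, adjusted p = 0.00256). Pdcd6ip, the ESCRT adaptor ALIX, fell by 0.44 on the log2 scale (adjusted p = 0.00344), but did not pass in the length-corrected fit (adjusted p = 0.118).

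Some further members were chosen after their values were seen. Pdcd6, the calcium sensor ALG-2 that binds ALIX, rose to 41.9 ± 3.69 CPM in STAT3cKO, against 29.0 ± 2.70 CPM in wild type (log2 fold change 0.53 ± 0.11, edgeR adjusted p = 0.00422). Capn3, the muscle calpain whose loss in humans causes a limb-girdle muscular dystrophy, fell by 1.06 on the log2 scale (adjusted p = 0.0211), a call lost without STAT3cKO replicate 3 (0.052) or 6 (0.0521) or wild type replicate 3 (0.0693) or 4 (0.0818). The annexins Anxa1 (0.82, adjusted p = 0.0427) and Anxa5 (0.34, adjusted p = 0.0215) rose and Anxa6 (-0.30, adjusted p = 0.0269) fell, and Anxa2 stood at 0.23 (adjusted p = 0.378). Neither Anxa1 (adjusted p = 0.074) nor Anxa5 (0.0904) passed in the length-corrected fit, and leaving out single hearts ended the calls of all 3. Over the whole list, 2 genes rose with library size alone or in the length-corrected fit, 5 without STAT3cKO replicate 91 or wild type replicate 3 and 4 without wild type replicate 4. The number that fell was 4 without STAT3cKO replicate 3 or wild type replicate 3.

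Among phospholipid scramblases outside the anoctamins and the flippases that work against them, 1 of 11 tested fell and 0 rose (edgeR, median log2 fold change -0.16). Of all genes tested, 12.6% fell and 13.2% rose. The list member that fell was Atp11b, a flippase subunit, with 27.6 ± 2.30 CPM in STAT3cKO and 41.1 ± 1.96 CPM in wild type (log2 fold change -0.58 ± 0.10, adjusted p = 0.00182). The number that fell was 3 with library size alone and 2 without STAT3cKO replicate 6 or with no low-count filter.

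**Figure D4:**
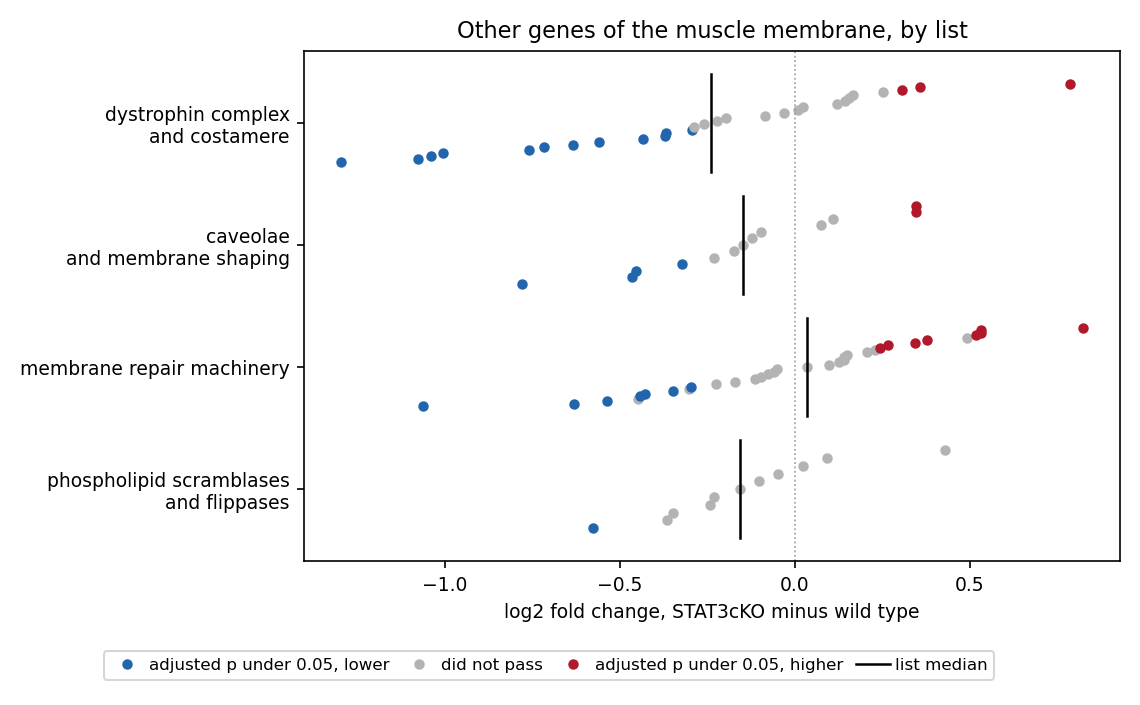
Log2 fold change (STAT3cKO minus wild type) of every tested gene in 4 lists of muscle membrane genes. Blue points are genes that fell, red points genes that rose and grey points genes that did not pass (edgeR adjusted p under 0.05), and the black line is the median of the list. The medians are -0.24 for the dystrophin complex, -0.15 for caveolae, 0.04 for repair machinery and -0.16 for scramblases and flippases.

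The 3 genes whose log2 CPM followed each called member most closely over the 6 hearts are given by Pearson's r, as a description in which the difference between the groups takes part. For Ano5 they were Glud1 (0.998), Ivd (0.996) and She (0.994), whose own log2 fold changes were -0.26, -0.30 and -0.49. For Ano1 they were Snx13, Abhd2 and Ubr3, with r from 0.998 to 0.999. For Ano6 they were Evl, Ptprj and Gpr107, with r from 0.993 to 0.999. Trim72 was followed by Secisbp2l, Dnmbp and Fam120a (0.995 to 0.996), and Ano10 by Sgta, Isoc2a and Rffl (0.990 to 0.998).

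Over all genes tested, 12.6% were lower and 13.2% higher. Most neighbours of the other called genes in RefSeq order were likewise not called. Of the 8, Ccnd1 beside Ano1 fell (log2 fold change -0.54 ± 0.11, edgeR adjusted p = 0.0033) and Gm19366 beside Trim72 rose (1.73 ± 0.57, adjusted p = 0.0419), a call lost in 7 of the 16 alternative fits. Fadd, Tmem117, E330033B04Rik, Snrk, Abhd5 and Pycard did not pass, with adjusted p from 0.268 to 0.791.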

How the data were processed

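RNA sequencing of mouse hearts gave 6 libraries in 2 groups of 3, taken from the genotype label. Replicates carry the numbers in the sample titles. The authors deposited 1 table of raw read counts per gene symbol, with no normalization. HISAT2 and GRCm38 are named in the submitters' processing notes. The HISAT2 version, counting program, annotation, strand setting and handling of multiply mapped reads were not given in the sources used here, so reads of overlapping genes cannot be separated.

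In R 4.3.3, low genes were removed with filterByExpr (edgeR 4.0.16, minimum count 10) and the rest were scaled by TMM and compared with the robust quasi-likelihood test, with genotype as the only term and Benjamini-Hochberg adjustment over 14484 genes, called at 0.05. The SE is the size of the log2 fold change over the root of its F. The fit was also run on simulated counts. They had the same dispersion for every gene and no length trend, so that run does not show how the fit handles these data. Lengths are of the longest GENCODE M21 transcript (75.0% of symbols and 95.9% of genes tested), and positions and promoters are RefSeq's on GRCm38.p6. The length-corrected fit has as offset a spline trend (5 degrees of freedom each) of log2 CPM deviations in each heart, and genes with no length took the median deviation. Pairs of hearts in a group differed by 9.05 to 29.5 times the sampling noise (chi-square per gene), and no pair agreed within it.

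The members, lists and alternatives were chosen with earlier results of these data known. Named genes are the 9 members, other anoctamins and ferlins, Stat3, up to 4 members of each pathway list and up to 2 of each marker list with the smallest adjusted p, the nearest tested neighbours of called members and the 3 genes most like each. Others are stated to have been chosen after their values were seen. Further marker lists were tested, and are to be read beside 13.2% of all genes tested that rose and 12.6% that fell. Of 10 fibroblast markers 1 rose and 3 fell. Of 3 tested skeletal muscle markers 1 rose and 0 fell (Myh4 and Pax7 were at 0). Of 4 tested Schwann cell and nerve markers 0 rose and 2 fell, and of 5 red blood cell markers 4 rose and 0 fell. Alternatives were DESeq2 size factors, upper-quartile factors, library size alone, no filter, a stricter filter (1 CPM in 3 hearts and a mean of 50 counts), DESeq2 1.42.0, limma-voom (limma 3.58.1), non-robust estimation, leaving out mitochondrial and haemoglobin genes, the length-corrected fit and leaving out each heart.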

Additional observations from a re-analysis of the deposited data

How the results depend on the processing

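No paired analysis was possible because the groups share only 1 replicate number. As a description of genes chosen from this contrast, Ano1, Ano6 and Trim72 stayed lower and on the same side of the threshold in all 16 alternatives and Ano5 in 15 (the stricter filter removed it), with log2 fold changes of -1.07 to -0.74 for Ano1, -3.76 to -2.55 for Ano5, -0.68 to -0.39 for Ano6 and -0.68 to -0.50 for Trim72. With library size alone the median over all genes moved to -0.11 on the log2 scale, 1109 genes were higher in place of 1918 (29.0% of calls), no member was called higher, and 0 genes of the caveolae list, 2 of the repair list and 0 of the dystrophin list rose, while 3 scramblases and flippases fell. In the length-corrected fit 1120 genes were lower in place of 1820, 0 members were called higher, and 0 caveolae and 2 repair genes rose. With no low-count filter 2 scramblases and flippases fell. Leaving out 1 heart gave 1237 to 1887 genes higher and 1198 to 1999 lower, with 0 to 1 members higher and 4 to 5 lower. It gave 0 to 2 caveolae genes, 4 to 7 repair genes and 0 to 3 dystrophin genes that rose, and 4 to 6 repair genes and 1 to 2 scramblases and flippases that fell.

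Of the genes whose sign changed, Ubr3 alone was called (edgeR adjusted p = 0.0229). Ano8 was at -0.05 with library size alone, 0.00 without STAT3cKO replicate 91 and -0.04 without wild type replicate 3, and leaving out hearts took it up to 0.12. In the length-corrected fit the values were 0.02 for Dysf, 0.00 for Cav3, 0.23 for Fer1l6, 0.01 for Snx13, 0.00 for Ubr3, -0.09 for E330033B04Rik, 0.02 for Snrk and -0.04 for Sgca. With library size alone they were -0.06 for Fadd, -0.02 for Abhd5 and 0.00 for Sgca. Fer1l6 was at 0.09 with limma-voom, 0.04 without STAT3cKO replicate 3 and 0.33 without wild type replicate 3, with -0.28 as the lowest value without 1 heart. Without STAT3cKO replicate 3, Fadd was at -0.06 (highest without 1 heart 0.14) and E330033B04Rik at -0.09, and without STAT3cKO replicate 91 Snrk was at 0.03. The cause of these changes was not tested. Of the other values for named genes over the 16 alternatives, 1080 kept their direction and their side of the threshold, 94 lost a call and 12 gained one. Ano5, with 2 to 13 counts in STAT3cKO hearts, is the least precise of the 9 genes.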
